A study of Homo sapiens with 4 samples.

Results

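The clustered histone genes were examined in the human pre-B line Nalm-6. They were chosen by name, as the protein-coding genes whose current symbol is H1-1 to H1-6 or begins with H2AC, H2BC, H3C or H4C, or whose old name places them in the HIST1, HIST2, HIST3 or HIST4 cluster. Of the 71 such genes in the gene table, 65 have a probe on the array, out of 17721 genes with a named probe, and they are measured by 76 probes of 1 spot each. The 6 without a probe are *H2AC13*, *H2AC18*, *H2BC18*, *H3-7*, *H3C14* and *H4C14*. Of the genes with a probe, only *H3-4* entered by its old name alone. The values that belong to this choice are the log2 processed signal relative to the 75th percentile of the array and the scanner software's mark for a spot well above background. They are given as a description, with no test.

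The study asked how Arp5 and Arp8, actin-related subunits of the INO80 chromatin remodeling complex, take part in gene expression. Total RNA of unstressed cells was labelled with Cy3 and hybridized to 4 single-color Agilent arrays, with 1 array each for wild-type cells, Arp5 KO cells, Arp8 KO cells and cells labelled Arp8 overexpression. Both knockouts were made by homologous recombination, and overexpression was driven by a Tet-Off system that had been brought into cells lacking Arp8. Each genotype is thus 1 culture on 1 array, and no difference has a replicate check. Of 43376 spots per array, the scanner software marked 31188 (wild-type), 31420 (Arp5 KO), 30394 (Arp8 KO) and 30803 (labelled Arp8 overexpression) as well above background. Below, series of 4 signals follow this order, and series of 3 log2 ratios to wild-type cells follow the order Arp5 KO, Arp8 KO, labelled Arp8 overexpression.

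Histones H2A, H2B, H3 and H4 form the core of the nucleosome, and H1 binds the linker DNA between nucleosomes. The genes of the clusters are transcribed mainly in S phase, when new DNA has to be packed. Most of their mRNAs end in a stem-loop that is bound by SLBP in place of a poly(A) tail, and many copies encode the same or nearly the same protein.

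The labels were first compared with the targeted genes. *ACTR5*, the gene for Arp5, had 1909 (wild-type), 65.3 (Arp5 KO), 1849 (Arp8 KO) and 2088 units (labelled Arp8 overexpression). It was therefore low in Arp5 KO cells and in no other sample. Arp8 is encoded by *ACTR8*, which has 2 probes. One of them read 2149 (wild-type), 2233 (Arp5 KO), 1654 (Arp8 KO) and 1857 units (labelled Arp8 overexpression). The other read 1092, 993, 785 and 679 units in the same order. *ACTR8* was thus not higher than in wild-type cells on the array labelled Arp8 overexpression, and the name of that array is used here only as its label. Where these probes lie relative to the disrupted part of the gene is not given in the sources used here, so they do not check the Arp8 KO label either.

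The cells were also compared with markers of their type. All 10 pre-B cell markers examined, among them *IGLL1* and *RAG1*, were well above background on the 4 arrays. Of the 4 T cell markers, *CD3E* and *CD2* were well above background on all 4 arrays and *CD3D* and *CD3G* on none. Of the 4 myeloid markers, 3 were well above background on all 4 arrays and *MPO* on none. Of 3 erythroid markers, 1 was well above background on all 4 arrays, and the 3 summed to 26.1, 26.3, 30.4 and 29.8 units. The 4 T cell markers summed to 83.5, 79.9, 79.6 and 83.8 units. The 4 myeloid markers summed to 194, 188, 287 and 282 units. *LYZ*, named here after its values were seen, made up most of the difference, with 55.4, 46.3, 143 and 139.7 units. *CSF1R*, named in the same way, read 11.07, 11.01, 16.19 and 25.34 units, so that 2 of the 3 myeloid markers above background were higher beyond 2-fold on the array labelled Arp8 overexpression. The part of these low signals in the histone results was not tested.

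Among the 76 histone probes, 72 were well above background on all 4 arrays, 1 on some arrays and 3 on none. The 3 are those of *H1-1*, *H2BC1* and *H4C16*, each under 6 units on every array. The probe on some arrays is that of *H1-6*. The dimmest signal was over 500 units for 64 of the probes. Probes spotted repeatedly give the technical error of a log2 ratio, with a median SD of 0.031 over 500 units (145 repeated probes), 0.056 from 50 to 500 units (37 probes) and 0.25 under 50 units (26 probes). This error leaves out any variation between cultures.

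The median ratio of the histone probes differed between the comparisons. With labelled Arp8 overexpression, H2B had the lowest family median and H3 the highest, and the Arp8 KO comparison gave the same order of families. The places of H1 and H2A were close on the array labelled Arp8 overexpression, with medians of -0.631 and -0.624. They were exchanged there with normexp, another background correction, with -0.483 and -0.599. For Arp5 KO the order was another one, with H1 lowest and H2A highest. On the array labelled Arp8 overexpression 27 histone probes were lower than in wild-type cells beyond 2-fold and none was higher, out of 73 that could be called, a share of 37.0%. Among all probes 2.76% were lower and 1.48% higher. The median log2 ratio was -0.68 over the histone probes and 0.02 over all probes. Histone probes made up 27 of the 817 probes lower beyond 2-fold, or 3.30%. With normexp they were 24 of 219, or 10.96%, and 0.741% of all probes were lower. Among probes with a mean signal over 500 units, a limit chosen after seeing the data, 24 of 67 histone probes were lower, or 35.8%, against 0.838% of all such probes. These 24 made up 18.2% of the 132 such probes that were lower.

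In Arp5 KO cells the histone probes lay slightly above wild-type cells. Their median log2 ratio was 0.29, against 0.04 over all probes, and 68 of 73 were above 0. Only 2 of the 73 were lower and none was higher beyond 2-fold, with a background of 1.14% lower and 1.17% higher. In Arp8 KO cells the median was -0.10, against 0.02 over all probes, and 49 of 73 were below 0. Here too 2 probes were lower and none was higher beyond 2-fold, with a background of 2.07% and 1.48%. With normexp no histone probe was beyond 2-fold in either KO line, and the background fell to 0.339% lower and 0.276% higher for Arp5 KO and to 0.733% and 0.419% for Arp8 KO. All 3 comparisons share the wild-type array, so a deviation of that array enters each of them. Among the 72 probes well above background throughout, the highest level after scaling was found in Arp5 KO cells for 64 and the lowest on the array labelled Arp8 overexpression for 56. Under the other scalings tried these numbers were between 61 and 65 and between 56 and 60.

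**Figure D1:**
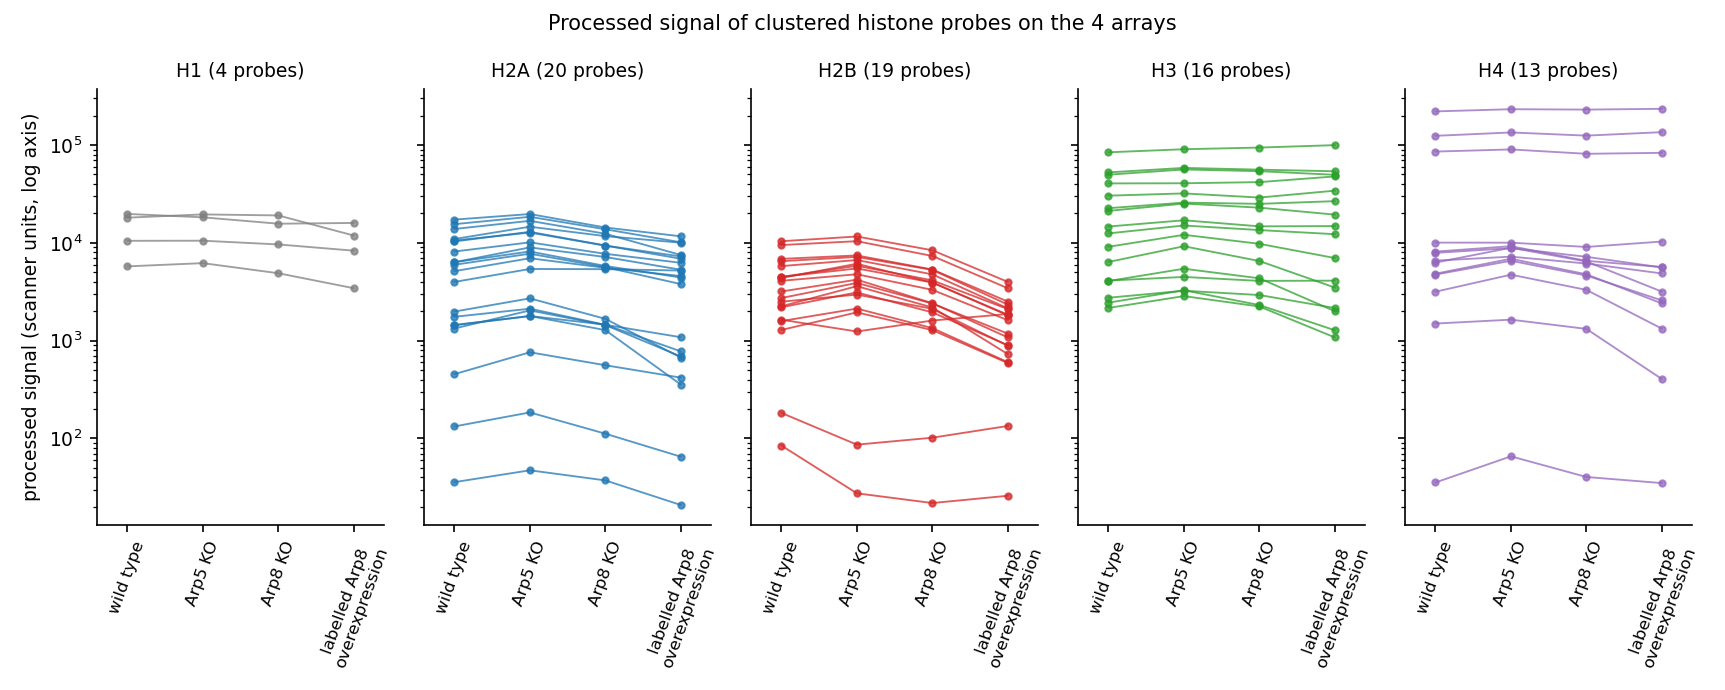
Processed signal in scanner units (log axis) of the 72 histone probes well above background on all 4 arrays, with 1 line per probe and 1 panel per family; each point is 1 array. Nearly all H2A and H2B lines end lowest at the array labelled Arp8 overexpression, while the H3 and H4 lines with high signals stay level.

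H2B was the family with the lowest median ratio on the array labelled Arp8 overexpression. It pairs with H2A in the nucleosome. The *H2BC7* probe read 9495 (wild-type), 10393 (Arp5 KO), 7340 (Arp8 KO) and 3431 units (labelled Arp8 overexpression), which is 2.81-fold lower than in wild-type cells. *H2BC13* read 10384, 11610, 8389 and 3987 units in the same order. *H2BC11* read 2243, 3607, 2180 and 727 units and had a log2 ratio of -1.65 on the last array. All 3 were thus highest in Arp5 KO cells, lower than wild-type in Arp8 KO cells and lowest on the array labelled Arp8 overexpression. *H2BC5* read 3179, 4202, 2412 and 1078 units, *H2BC3* 2502, 2955, 2115 and 886, and *H2BC9* 6492, 7175, 5290 and 2333. Their log2 ratios on the array labelled Arp8 overexpression were -1.58, -1.52 and -1.50.

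Of the 19 H2B probes that could be called, 17 were lower beyond 2-fold on the array labelled Arp8 overexpression, and the family median was -1.40. This median lay between -1.45 and -1.38, and the count between 15 and 17, under the 6 scalings and background corrections tried. In Arp8 KO cells all 19 were below wild-type cells, with a median of -0.26. In Arp5 KO cells 16 of 19 were above, with a median of 0.26. *H2BC12* stood apart from the rest of its family. Its probe read 1635 (wild-type), 1240 (Arp5 KO), 1605 (Arp8 KO) and 1871 units (labelled Arp8 overexpression), with log2 ratios of -0.38, -0.04 and 0.17. It was the only H2B probe above wild-type cells on the array labelled Arp8 overexpression. It was named after its values were seen.

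The H2A medians had the same sign as the H2B medians in the 3 comparisons with wild-type cells. The *H2AC14* probe with the higher signal read 17274 (wild-type), 19698 (Arp5 KO), 14345 (Arp8 KO) and 11658 units (labelled Arp8 overexpression). *H2AC15* read 15514, 18457, 13763 and 10127 units in the same order. All 20 H2A probes were above wild-type cells in Arp5 KO cells, with log2 ratios from 0.21 to 0.77 and a median of 0.39. All 20 had their highest scaled level in Arp5 KO cells, and 19 had their lowest on the array labelled Arp8 overexpression. On that array the median was -0.62, and 3 probes were lower beyond 2-fold. *H2AC16* read 1435, 1784, 1281 and 355 units and was 4.11-fold lower, with a log2 ratio of -2.04, the lowest of all histone probes in that comparison. *H2AC4* read 1981, 2704, 1669 and 671 units, with -1.58, and *H2AC6* read 133, 184, 112 and 65.0 units, with -1.05. In Arp8 KO cells the H2A median was -0.12, and 13 of 20 probes were below wild-type cells.

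The linker histone genes were examined next. *H1-3* read 19747 (wild-type), 18232 (Arp5 KO), 15686 (Arp8 KO) and 15971 units (labelled Arp8 overexpression). *H1-2* read 18086, 19526, 19064 and 11868 units, with log2 ratios of 0.13, 0.06 and -0.63. The 5 H1 probes above background on any array had a median of -0.63 on the array labelled Arp8 overexpression and -0.25 in Arp8 KO cells. In Arp5 KO cells the H1 median was 0.03 and was between -0.03 and 0.03 under the scalings and background corrections tried, so that no direction can be given. *H1-6*, a testis-specific H1 gene, read 19.2 and 14.8 units in wild-type and Arp5 KO cells and was not well above background on the other arrays. Against the lowest signal well above background, it was at least 2.06-fold lower in Arp8 KO cells and at least 2.20-fold lower on the array labelled Arp8 overexpression, at a signal where the technical SD is 0.25. It was not beyond 2-fold with normexp in either comparison, nor with quantile normalization in Arp8 KO cells.

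H3 genes split into probes that stayed level and probes that were lower on the array labelled Arp8 overexpression. The *H3-4* probe read 84308 (wild-type), 90599 (Arp5 KO), 94260 (Arp8 KO) and 99762 units (labelled Arp8 overexpression). *H3-4* is described as a testis-specific H3 gene, and whether its probe also binds other H3 mRNAs could not be examined, because the files used hold no probe sequences. *H3C13* read 52514, 58368, 56023 and 53914 units by one probe and 49766, 56257, 54055 and 49616 by the other. Both probes had log2 ratios between -0.03 and 0.20 in the 3 comparisons with wild-type cells. *H3C10* read 2160, 2852, 2234 and 1078 units in the order given above, and *H3C7* read 4067, 5435, 4337 and 1999. These were the 2 H3 probes lower beyond 2-fold on the array labelled Arp8 overexpression, with -1.03 and -1.05. The H3 median there was -0.04, with single values from -1.05 to 0.22, and it lay between -0.18 and -0.02 under the scalings and background corrections tried. All 16 H3 probes were above wild-type cells in Arp5 KO cells, with a median of 0.25. In Arp8 KO cells the H3 median was 0.08, the only family median above 0 in that comparison.

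The H4 probes also covered a wide range of ratios. *H4C3* read 220822 (wild-type), 232505 (Arp5 KO), 230406 (Arp8 KO) and 234697 units (labelled Arp8 overexpression). *H4C13* read 124211, 134482, 124821 and 135420 units. Neither probe moved by more than 0.14 on the log2 scale in any comparison with wild-type cells, and no spot of the arrays was saturated. *H4C1*, in contrast, read 1495, 1638, 1318 and 405 units and was 3.75-fold lower on the last array, with a log2 ratio of -1.91. *H4C6* read 3162, 4724, 3302 and 1325 units, with 0.60, 0.05 and -1.28. Of the 13 H4 probes that could be called 4 were lower beyond 2-fold on the array labelled Arp8 overexpression, with a family median of -0.52. After scaling to the 75th percentile, though not in the units printed here for *H4C3* and *H4C13*, all 13 had their highest level in Arp5 KO cells, and the Arp5 KO median was 0.18. *H4C7*, named after its values were seen, had the highest ratio of all histone probes in Arp5 KO cells, 0.91, with 35.4, 65.6, 40.3 and 34.9 units. At signals under 50 units the technical SD has a median of 0.25.

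**Figure D2:**
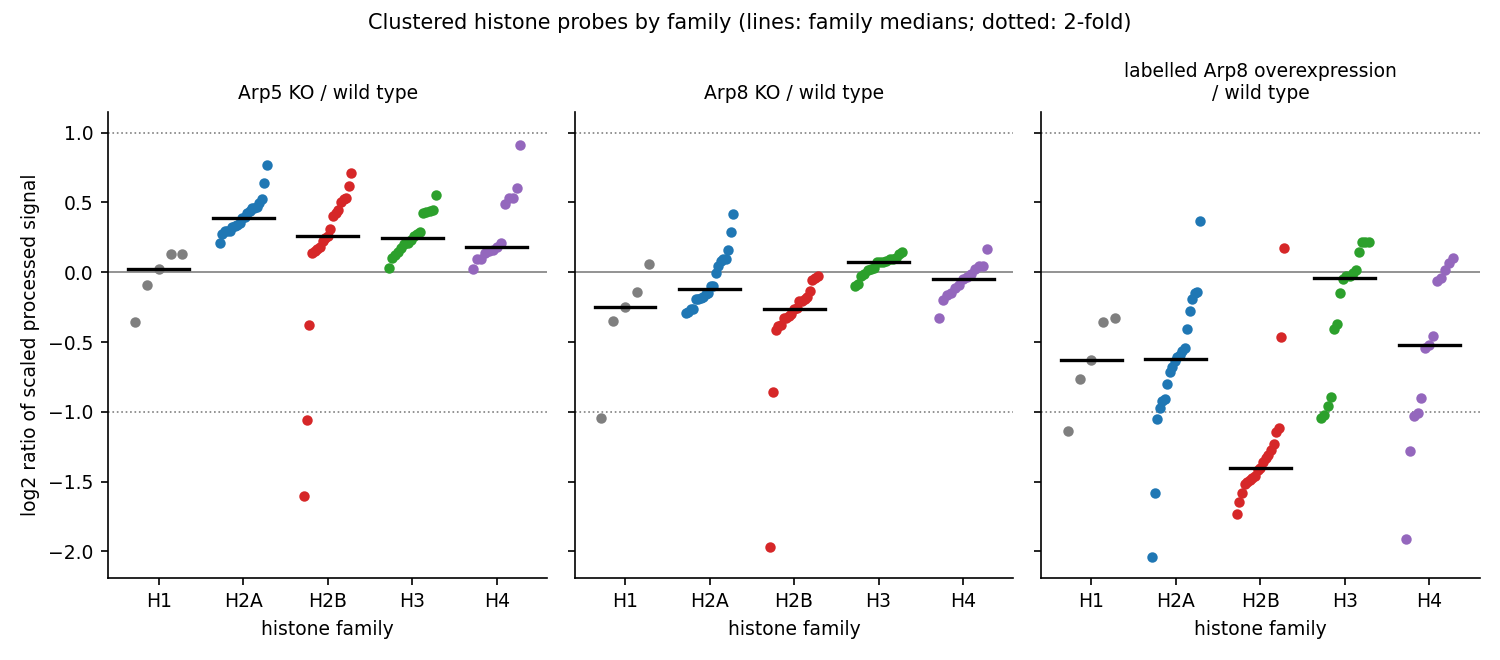
Log2 ratio to wild-type cells of each histone probe well above background on any array, by family, with 1 panel per genotype and labelled Arp8 overexpression at the right; each point is 1 probe, black lines are family medians and dotted lines mark 2-fold. H2B lies lowest in the right panel, with a median of -1.40, and H3 is spread between -1.05 and 0.22.

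All histone probes with the highest signals stayed level, and some with lower signals did too. When the probes were grouped by their mean signal over the 4 arrays, the 10 probes over 20000 units, 7 of H3 and 3 of H4, had a median log2 ratio of 0.08 on the array labelled Arp8 overexpression, with a range from -0.15 to 0.22. The 8 probes between 10000 and 20000 units had a median of -0.46, the 20 between 5000 and 10000 units -0.55 and the 28 between 1000 and 5000 units -1.19. Within H2B the medians were -1.48 for the 4 probes between 5000 and 10000 units and -1.33 for the 13 between 1000 and 5000 units. For H2A they were -0.61, -0.54 and -0.95 for the 4, 7 and 6 probes from the brighter to the dimmer of these groups. For H3 the medians were 0.15 over 20000 units, then -0.03, -0.65 and -0.96 in the dimmer groups. For H4 they were 0.06 over 20000 units, -0.52 from 5000 to 10000 and -1.16 from 1000 to 5000. Probes with a mean signal under 1000 units are in none of these groups and did not continue the series. Those well above background on all 4 arrays ranged from -1.73 for a probe of *H2BC21* to -0.04 for *H4C7* on the array labelled Arp8 overexpression. The part of signal strength in these differences was not tested.

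The clusters were compared next. HIST1, the large cluster on chromosome 6, holds 59 of the 76 probes, HIST2 13, HIST3 3 and HIST4 1. On the array labelled Arp8 overexpression 23 of 57 callable HIST1 probes were lower beyond 2-fold, with a median log2 ratio of -0.80, against 3 of 13 HIST2 probes, with a median of -0.19. In Arp5 KO cells the medians were 0.27 for HIST1 and 0.46 for HIST2, and in Arp8 KO cells -0.13 and 0.10. The families are not equally shared between the clusters, and the difference between them was not tested.

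In HIST2, *H2AC19* read 3982 (wild-type), 5402 (Arp5 KO), 5378 (Arp8 KO) and 5206 units (labelled Arp8 overexpression) by one probe. Its other probe read 454, 760.0, 560.0 and 418 units. By the first probe it was higher than in wild-type cells on every other array, and by the second on both KO arrays only. *H2AC20* read 10937, 14615, 11708 and 10028 units by one probe and 5132, 6956, 5552 and 4570 by the other. *H3C15* read 12485, 15040, 13504 and 12256 units. Both genes were highest in Arp5 KO cells and near wild-type cells elsewhere. *H2AC21* read 6333, 8976, 7165 and 5304 units by one probe and 1329, 2036, 1440 and 689 by the other. On the array labelled Arp8 overexpression its log2 ratio was thus -0.28 by the first and -0.97 by the second. *H4C15* read 6277, 8915, 6442 and 3168 units, which gives log2 ratios of 0.53, 0.02 and -1.01. In HIST3, *H2AC25* read 10326, 12954, 9373 and 6875 units and *H2BC26* read 4090, 4772, 3305 and 1617. They followed their families, with log2 ratios of -0.61 for the H2A gene and -1.36 for the H2B gene on the array labelled Arp8 overexpression. *H4C16*, the HIST4 gene, was not well above background.

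Many H2A and H2B genes lie head to head and are transcribed away from a common stretch of DNA. In the RefSeq promoter table of GRCh38.p14, 11 pairs of an H2A and an H2B gene lie head to head. They are on opposite strands with starts less than 1000 bases apart, and the distance from start to start is 194 to 248 bases. In 9 of the pairs both genes were well above background and are compared here. *H2BC1* of a further pair was not above background, and *H2AC13* of another has no probe. Pairs could be found only among genes with an entry in that table, which 14 of the 15 H2A genes with a probe have. The bases between the starts of *H2AC11* and *H2BC11*, at chr6:27132796-27133042 (GRCh38.p14, read on the minus strand toward *H2BC11*), are shown because this pair had one of the widest differences within a pair. Capitals mark the CCAAT box, the TATA box and the octamer, on either strand.

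H2AC11-H2BC11: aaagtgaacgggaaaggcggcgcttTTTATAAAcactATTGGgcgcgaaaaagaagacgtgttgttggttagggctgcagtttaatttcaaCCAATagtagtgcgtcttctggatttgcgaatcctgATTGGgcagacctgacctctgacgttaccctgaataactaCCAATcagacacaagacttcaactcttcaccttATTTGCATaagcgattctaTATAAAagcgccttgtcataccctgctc

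The stretch holds 4 CCAAT boxes, a TATA box before each gene and 1 octamer, which lies 47 bases before the start of *H2BC11*. On the array labelled Arp8 overexpression *H2AC11* had a log2 ratio of -0.56 and *H2BC11* of -1.65. *H2AC11* read 10558 (wild-type), 12738 (Arp5 KO), 9368 (Arp8 KO) and 7256 units (labelled Arp8 overexpression). The same direction held in the other pairs compared. In 9 of the 9 pairs compared the ratio of the H2B gene was below that of its H2A partner on that array. The median difference was -0.75, with a range from -1.08 to -0.10. The narrowest difference was that of *H2AC6* and *H2BC4*, and the widest were those of *H2AC20* and *H2BC21* and of *H2AC11* and *H2BC11*. The medians over the pairs were -0.61 for H2A and -1.36 for H2B. In Arp5 KO cells the H2B gene was below its partner in 3 of 9 pairs and in Arp8 KO cells in 5 of 9. The median differences there were 0.12 and -0.17. A gene with several probes is given here by the probe with the highest mean level. *H2AC12* and *H2BC12*, both well above background, are in none of the pairs found. Their log2 ratios on the array labelled Arp8 overexpression were -0.91 and 0.17, with the H2B gene above the H2A gene. Whether they form a further pair was not tested.

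**Figure D3:**
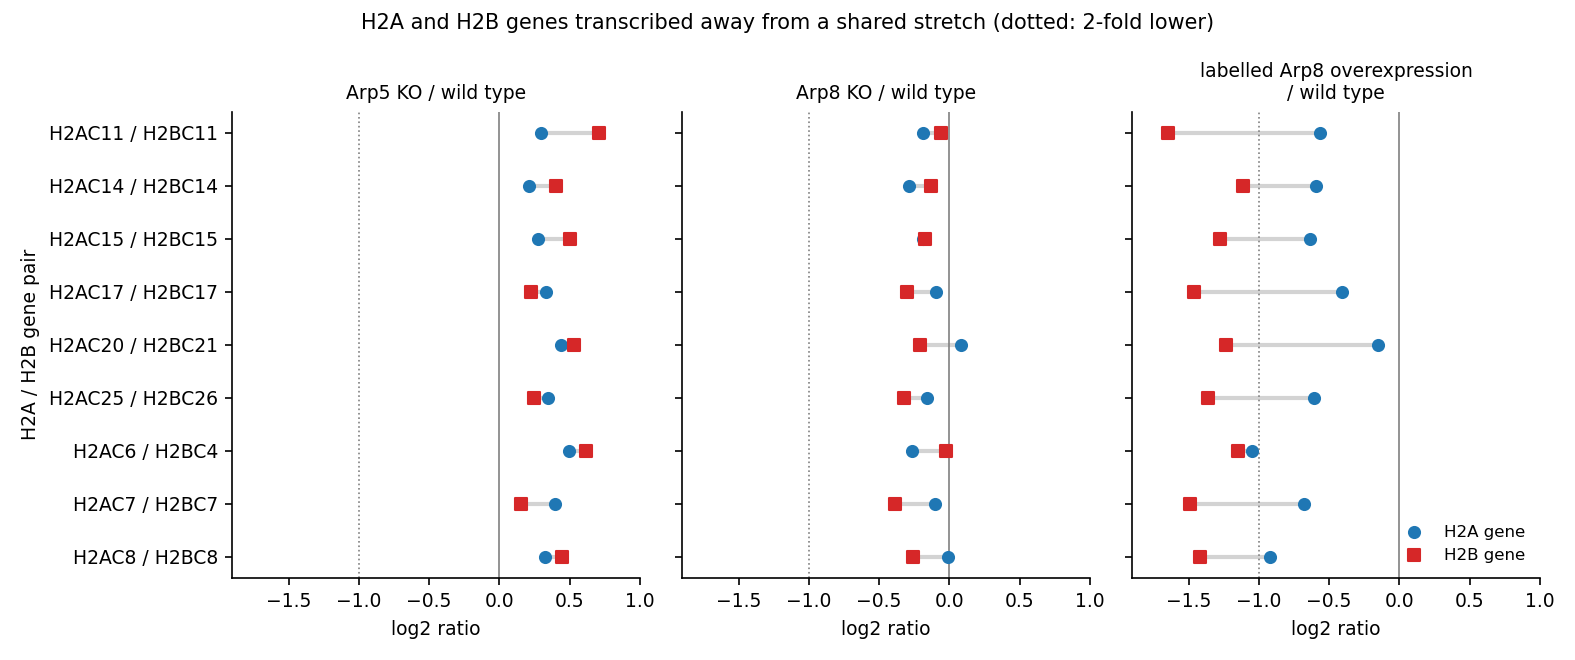
Log2 ratio to wild-type cells of the H2A gene (circles) and the H2B gene (squares) of the 9 head-to-head pairs compared. Each panel is 1 genotype, with labelled Arp8 overexpression at the right. Grey bars join the genes of a pair. In the right panel every square lies to the left of its circle, by 0.10 to 1.08.

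The promoters were then searched for sequence elements known from histone genes. The CCAAT box (CCAAT), the TATA box (TATAAA) and the octamer (ATTTGCAT), which is bound by POU2F1, were looked for on both strands in the 250 bases before and 50 bases after each start. The TATA box read on both strands can overlap itself. Of the 65 genes 60 have an entry in the promoter table. A CCAAT box was found in 85.0% of them, against 39.7% of 27305 promoters in the table, a TATA box in 68.3%, against 14.0%, and the octamer in 41.7%, against 2.19%. The families differed. All promoters of H1, H2A, H2B and H3 genes held a CCAAT box, but only 3 of 12 H4 promoters did. The octamer was found in 11 of 14 H2A and 13 of 17 H2B promoters, in 1 of 11 H3 promoters and in none of the H1 and H4 promoters.

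The 120 bases before 3 starts show these arrangements, with the same elements in capitals and in GRCh38.p14 coordinates. *H2BC7* (chr6:26199396-26199515, plus strand) is shown as an H2B gene with low ratios, *H2BC12* (chr6:27146859-27146978, minus strand) as the H2B gene that stood apart, and *H4C2* (chr6:26027284-26027403, minus strand) as an H4 gene that stayed level.

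H2BC7: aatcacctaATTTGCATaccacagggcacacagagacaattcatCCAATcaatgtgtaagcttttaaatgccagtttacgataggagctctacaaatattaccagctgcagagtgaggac

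H2BC12: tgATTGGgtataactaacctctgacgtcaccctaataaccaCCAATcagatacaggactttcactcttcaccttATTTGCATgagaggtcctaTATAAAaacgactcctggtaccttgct

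H4C2: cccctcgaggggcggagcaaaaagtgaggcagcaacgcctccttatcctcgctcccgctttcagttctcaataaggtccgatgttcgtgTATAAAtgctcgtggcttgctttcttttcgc

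*H2BC12* and *H2BC11* have the octamer at 46 and 47 bases and the TATA box at 27 and 28 bases before the start, and their log2 ratios on the array labelled Arp8 overexpression were 0.17 and -1.65. *H4C2* read 85742 (wild-type), 90181 (Arp5 KO), 81359 (Arp8 KO) and 83235 units (labelled Arp8 overexpression), with a log2 ratio of -0.07, and holds only a TATA box in this window. Over the H2B genes measured, the median log2 ratio on the array labelled Arp8 overexpression was -1.44 for the 12 genes with an octamer (-1.65 to 0.17) and -1.38 for the 4 without (-1.58 to -1.28). The difference between these groups was not tested. A match is a description of the sequence, and it is neither a bound site nor a cause.

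Genes with several probes show how far 1 value can stand for a gene. There are 10 such histone genes. The gap between the highest and the lowest log2 ratio of their probes had a median of 0.14, 0.13 and 0.41 in the 3 comparisons with wild-type cells. The gap was at most 0.5 for 9 of the 10 genes in each KO line, and for 5 of 10 on the array labelled Arp8 overexpression. *H2BC21* had the widest gap in each comparison. Its probe A_24_P156911 read 2727 (wild-type), 3891 (Arp5 KO), 2393 (Arp8 KO) and 1179 units (labelled Arp8 overexpression). Its probe A_23_P149545 read 84.5, 27.4, 21.8 and 25.9 units, and its probe A_24_P148321 read 182, 86.3, 102 and 134 units. The first followed the other H2B genes, with log2 ratios of 0.54, -0.21 and -1.23. The second was lower on all arrays than in wild-type cells, with -1.60, -1.97 and -1.73, and the third had -1.06, -0.86 and -0.47. With normexp, the second had -0.71, -0.76 and -0.69, and no histone probe was lower beyond 2-fold in either KO cell line. In Arp5 KO cells, the 2 histone probes lower beyond 2-fold are these 2 with low signals. The 2 in Arp8 KO cells are A_23_P149545 and the probe of *H1-6*. No other member was called lower in either KO cell line.

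A further pair of probes was named for cDNA clones of *H3C7* and *H3C8* by the lists of misregulated genes that accompany the study, and since those lists had selected them for their change they were kept out of the counts of histone probes given here. The clone probe of *H3C8* read 449 (wild-type), 64.2 (Arp5 KO), 30.0 (Arp8 KO) and 46.5 units (labelled Arp8 overexpression). The RefSeq probe of *H3C8* read 14683, 17006, 14741 and 14830 units. So the clone probe was far lower on all arrays than in wild-type cells, and the RefSeq probe was level, with log2 ratios of 0.23, -0.01 and -0.01. The clone probe had log2 ratios of -2.78, -3.92 and -3.29, and -1.94, -2.32 and -2.13 with normexp. The clone probe of *H3C7* read 191, 83.4, 49.9 and 31.1 units, with -1.17, -1.96 and -2.64, where its RefSeq probe had 0.44, 0.08 and -1.05. Where the probes of a gene bind is not given in the files used here, and which transcripts each of them measures was not tested.

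**Figure D4:**
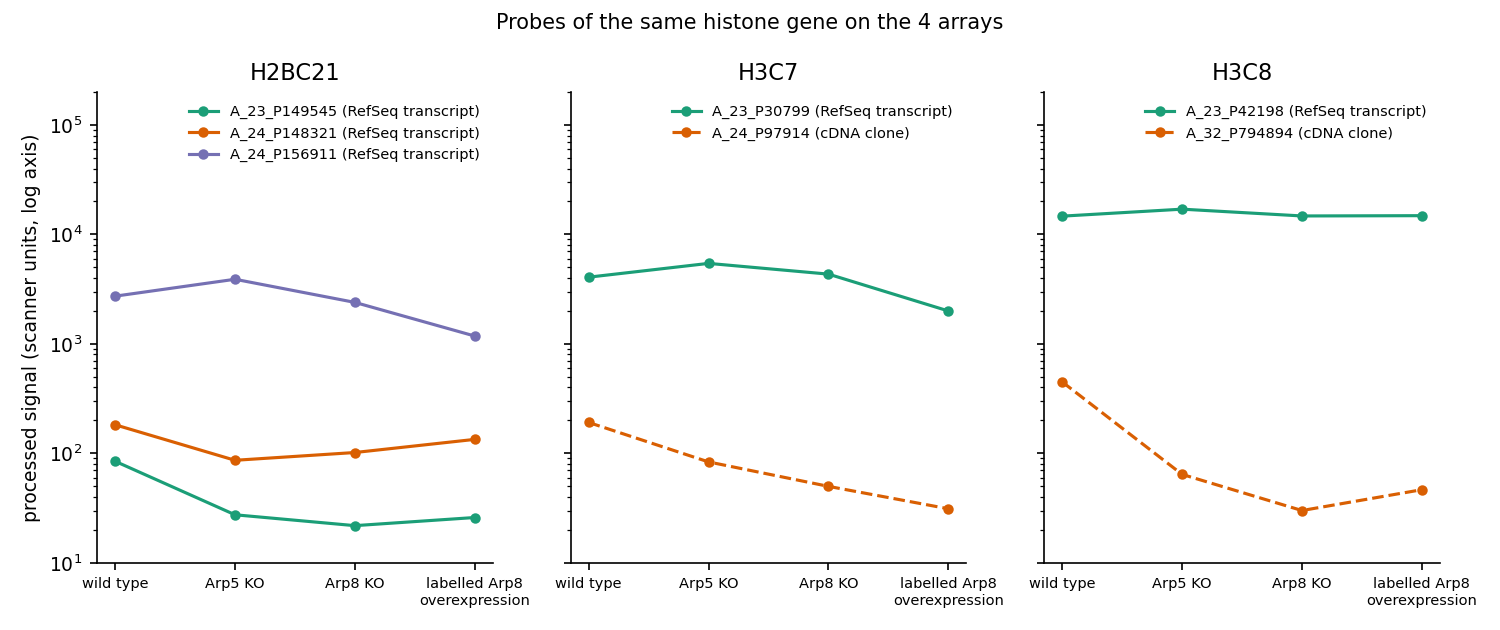
Processed signal in scanner units (log axis) on the 4 arrays for the probes of *H2BC21*, *H3C7* and *H3C8*; each line is 1 probe, solid for RefSeq transcripts and dashed for cDNA clones. The probes of one gene take different courses, as for *H3C8* with 14683 to 17006 units by one probe and 30.0 to 449 by the other.

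Arp8 KO cells were also compared with the array labelled Arp8 overexpression, which shares that array with the comparison described above. In Arp8 KO cells 23 of 72 callable histone probes were higher beyond 2-fold and none was lower, where 0.94% of all probes were higher and 0.927% lower. With normexp these were 20 of 72, with 0.22% of all probes higher and 0.292% lower. The median log2 ratio was 0.45, against 0.02 over all probes. By family the median was 2.15-fold higher for H2B, and the median log2 ratios were 0.44 for H2A, 0.34 for H4, 0.22 for H1 and 0.14 for H3. Of the 23 probes 15 were H2B, 3 H2A, 2 H3 and 3 H4. The widest ratios were those of *H2AC16* with 1.86, *H4C1* with 1.71 and *H2BC11* with 1.59. H2B thus had the widest median and H3 the narrowest, as they did when the array labelled Arp8 overexpression was set against wild-type cells.

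Genes that act on histone mRNA were examined as a list of 25, all of them measured. In this list and those below a gene is given by its probe with the highest mean level. *SLBP*, which binds the stem-loop, read 45575 (wild-type), 37102 (Arp5 KO), 39729 (Arp8 KO) and 43054 units (labelled Arp8 overexpression). *NPAT*, a coactivator of histone transcription, read 732, 535, 605 and 581 units. *CASP8AP2*, which is needed for histone mRNA processing, read 2914, 2517, 2708 and 2783 units. All of these were lower than in wild-type cells, by at most 0.43 on the log2 scale. By these probes only *NCBP1*, a subunit of the nuclear cap-binding complex, went beyond 2-fold, with 6711, 5971, 3366 and 3224 units. It was 2.02-fold lower in Arp8 KO cells and 2.12-fold lower on the array labelled Arp8 overexpression. The list had median log2 ratios of -0.05, -0.04 and 0.06. A second probe of *POU2F1*, named after its values were seen, was also beyond 2-fold, with 22.9 units in Arp5 KO cells, and was well above background on no other array.

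Histone genes outside the clusters, many of which are expressed throughout the cell cycle, did not share the low ratios as a group. *H2AZ1* read 202290 (wild-type), 197418 (Arp5 KO), 188629 (Arp8 KO) and 189674 units (labelled Arp8 overexpression). *H3-3A* read 180700, 185522, 183638 and 194963 units, and *H3-3B* read 115729, 116635, 118612 and 143576. *H2AX*, whose protein is phosphorylated at DNA breaks, read 51622, 41502, 39300 and 56694 units. The medians of these 14 variant genes were 0.00, 0.00 and 0.10. In Arp5 KO cells 1 of the 14 was lower beyond 2-fold, with a log2 ratio of -1.15. That is 7.14%, against 1.14% of all probes. None was beyond 2-fold in the other comparisons with wild-type cells. *H2AJ*, named after its values were seen, read 4838, 6243, 4680 and 3187 units by one probe, with log2 ratios of 0.39, -0.06 and -0.63. Another *H2AJ* probe read 74.5, 81.6, 83.9 and 81.3 units, with 0.16, 0.16 and 0.10, and a further one was not well above background. The 18 histone chaperones measured, which carry histones to DNA, had medians of 0.01, -0.05 and 0.06, and none was beyond 2-fold.

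Genes of the cell cycle were examined because clustered histone mRNA is made in S phase. *PCNA*, the sliding clamp of the DNA polymerases, read 67557 (wild-type), 67601 (Arp5 KO), 65876 (Arp8 KO) and 70826 units (labelled Arp8 overexpression). *CCNE2* read 811, 555, 804 and 779.7 units, *CCNA2* 8342, 6903, 6757 and 7924, and the mitotic cyclin gene *CCNB1* 28387, 27224, 27234 and 31245. The 28 S-phase genes had medians of 0.00, -0.12 and 0.09, and 19 of 28 were above wild-type cells on the array labelled Arp8 overexpression. The only S-phase gene beyond 2-fold was *MCM2*, a subunit of the replicative helicase, with 51402, 13309, 20075 and 48592 units, which is 3.80-fold lower in Arp5 KO and 2.59-fold lower in Arp8 KO cells. The 19 genes of G2 and mitosis that were measured had medians of -0.11, -0.19 and 0.00, with none beyond 2-fold. On the array labelled Arp8 overexpression, the histone median of -0.68 thus stood beside medians near 0 in both lists of cycle genes. Shares of cells in each phase were not measured. The labelling also primes from poly(A), so the signal need not stand for all histone mRNA. Fewer cells in S phase, less histone mRNA per cell and a smaller labelled part of that mRNA cannot be told apart in bulk RNA.

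Other genes that lie inside the HIST1 cluster were compared with the histone genes around them. The gene table places 19 protein-coding genes of other kinds between the first and the last HIST1 gene, of which 16 have a probe and 14 were above background. None was beyond 2-fold in any comparison, and their median log2 ratios were -0.08, 0.14 and -0.14. *BTN3A3* had the widest ratios, with 1240 (wild-type), 847 (Arp5 KO), 845 (Arp8 KO) and 909.7 units (labelled Arp8 overexpression). *SLC17A3* read 6.74, 9.01, 10.49 and 9.12 units, *SLC17A4* 17.1, 14.8, 19.6 and 15.6, and *ZNF184* 2729, 2143, 2261 and 2470. *HMGN4*, a nucleosome-binding protein gene named after its values were seen, read 11286, 11322, 12985 and 10501 units and was near wild-type cells throughout.

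**Figure D5:**
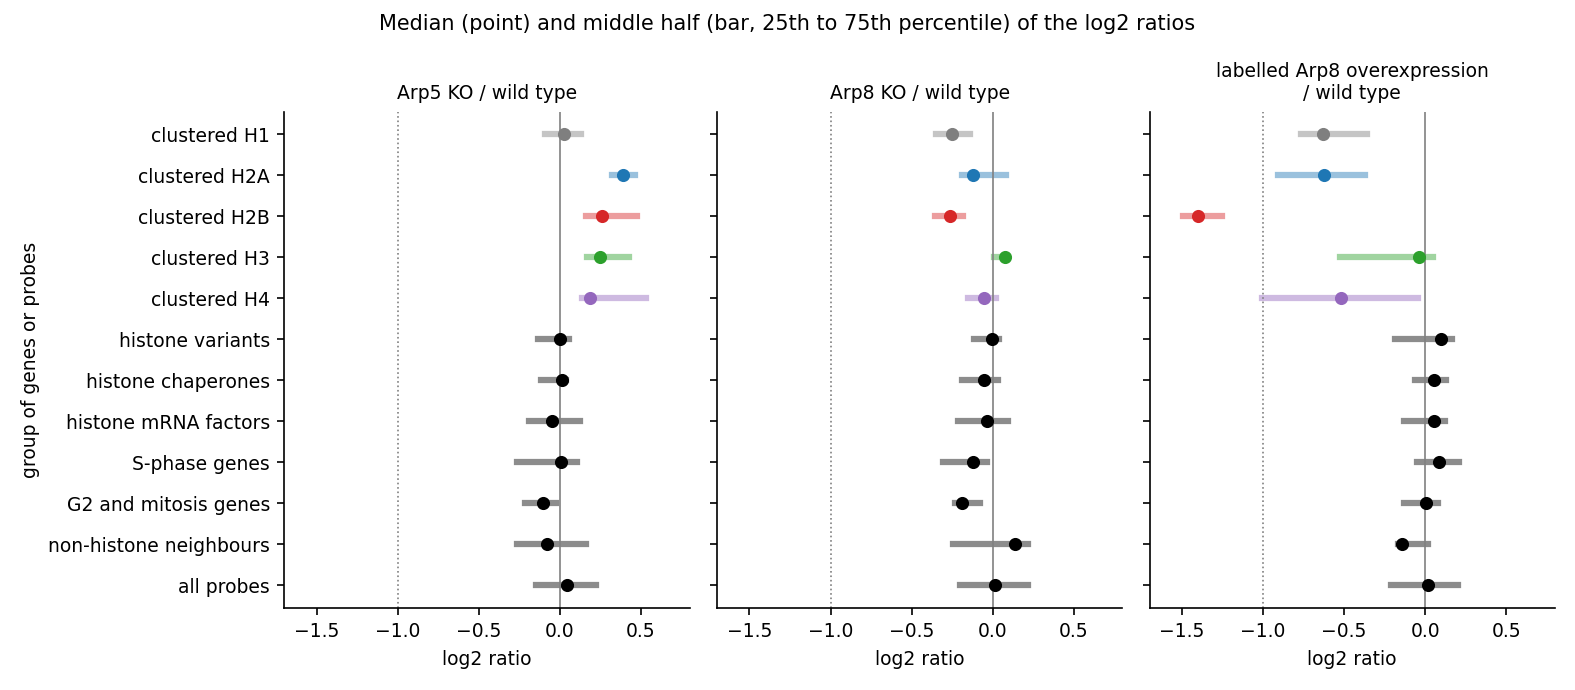
Median log2 ratio to wild-type cells (point) and the range from the 25th to the 75th percentile (bar) for each histone family, the lists of other genes, the non-histone neighbours in the HIST1 cluster and all probes, with 1 panel per genotype and labelled Arp8 overexpression at the right. In the right panel H2B lies at -1.40 and the lists of other genes lie between -0.14 and 0.10.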

How the data were processed

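Per the file headers, the authors deposited the output of Agilent Feature Extraction 10.5.1.1, whose processed signal is an intensity with background subtracted and no scaling between arrays, and a table of intensity values equal to it times 1 factor per array. The array design is annotated on hg18. Here, log2 signals were set relative to the 75th percentile of each array's spots other than controls, without outlier spots, and spots of a probe were averaged. A dim side was raised to the lowest signal well above background (7.76, 6.90, 9.44 and 8.87 units for wild-type, Arp5 KO, Arp8 KO and labelled Arp8 overexpression). A probe was called beyond 2-fold when its brighter array was well above background. Genes were named through RefSeq accessions and GRCh38.p14 (26222 of 41000 probes, 64.0%). The labelling kit primes from poly(A), so the signal need not stand for the whole pool of histone mRNA, and cross-hybridization between histone copies could not be examined. Members and lists were chosen with earlier results of these data known. Named genes were up to 8 histone probes beyond 2-fold with the widest ratios per comparison, the 2 probes with the highest level per family, members outside HIST1, listed genes and up to 4 neighbours. Normexp was run on the median signal, since the files used hold no mean signal. Python 3.11.15, numpy 2.4.6, pandas 2.3.3, matplotlib 3.10.9, R 4.3.3 and limma 3.58.1 were used.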

Additional observations from a re-analysis of the deposited data

Results flagged for a closer look

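The median over the clustered histone probes lay above 0 in Arp5 KO cells and below 0 in the other comparisons with wild-type cells, although 24 of 73 probes were above 0 in Arp8 KO cells. The median log2 ratio was 0.29 for Arp5 KO and -0.10 for Arp8 KO, a difference of 0.39 between the medians (0.3918). Against the array labelled Arp8 overexpression, with -0.68, the difference of the medians was 0.97 (0.9725). With 1 array per genotype neither difference was tested, and both medians of a pair share the wild-type array.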

How the results depend on the processing

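No paired analysis was possible because there is 1 array for each genotype. Across other scalings, background corrections, filters, thresholds and sets of probes, no median over the histone probes changed sign. Of the counts and medians, 139 stayed within 1.5 times the count or within the technical SD of 0.037 of the median, and 21 moved further. Part of the 139 could not move. All 76 histone probes have 1 spot, so keeping outlier spots left their values unchanged. Of the histone probes beyond 2-fold, only 5 were followed singly, those of *H2BC7*, *H2AC16*, *H4C1* and 2 of *H2BC21*. Under the 5 alternatives that could move them, 55 of 55 values beyond 2-fold kept their direction and 51 stayed beyond 2-fold. *H1-6* lost its call with normexp on the array labelled Arp8 overexpression too. Probes lower on that array among all probes were between 219 and 907, with 219 under normexp. The 21 values follow, and the cause was not tested except where the threshold or the set of probes itself changed. Probes lower in Arp5 KO cells were 0 with normexp and with genes instead of probes, 1 at 3-fold and 4 with the 2 cDNA clone probes, an alternative chosen after seeing the data. At 1.5-fold 6 probes were higher in Arp5 KO cells. Probes lower in Arp8 KO cells were 1 with quantile normalization, with probes well above background on all 4 arrays, with genes instead of probes and at 3-fold, 0 with normexp and 4 with the clone probes. Probes lower on the array labelled Arp8 overexpression were 41 at 1.5-fold and 4 at 3-fold, and 3 probes were higher in Arp8 KO cells than on that array at 3-fold. The Arp5 KO median was 0.25 (0.2549) in the authors' table. The median on the array labelled Arp8 overexpression was -0.7258 in the authors' table, -0.6138 with normexp, -0.6346 with no filter on dim probes and -0.7166 with the clone probes. With Arp8 KO cells set against that array, the median was 0.494 with quantile normalization and 0.5018 with genes instead of probes. Signals under 50 units, as for 7 of the 76 probes, carry the largest technical error.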
